A study of Mus musculus with 4 samples.

Results

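Peaks of N6-methyladenosine (m6A) that were assigned to genes of the class TEC were followed in embryonic stem cells of mice that carry or lack Mettl5. TEC is the label that gene annotation gives, pending experimental proof, to loci with transcript evidence whose product has not been settled. Members were taken by class alone: every listed peak whose gene had this class and which lay on chromosomes 1 to 19, X, Y or MT. There were 526 such peaks of 46417, naming 164 of 9949 genes, and they joined into 195 regions where their exon blocks overlapped, against 15487 regions for all peaks. The 4 libraries came from stem cells of strain C57BL/6N, 2 of them wild type and 2 Mettl5-/-. Fragments of total RNA were enriched with an anti-m6A antibody and sequenced (MeRIP-seq), and a separate peak list was given for each library. The labels describe no treatment that separates the libraries of a genotype and do not say whether they are separate cultures or clones, so differences between them may be technical. The libraries are called wild type 1, wild type 2, knockout 1 and knockout 2.

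Most m6A in messenger RNA is placed by a nuclear complex built around Mettl3 and Mettl14, which favours adenosines in short motifs such as GGACT and acts on many non-coding polyadenylated RNAs too. Mettl5 acts with Trmt112 on an adenosine of 18S ribosomal RNA and is not part of that complex. Loci of class TEC are often unspliced clusters of expressed sequence with a polyadenylation signal, found inside, opposite or just beyond better known genes. Because of that placement, reads from a known gene and from a TEC locus can share the same bases.

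Several of the regions reached the start of a coding gene, and their letters are shown there because these are the sites at which the TEC peak and the coding gene meet. RefSeq sequences of the GRCm38.p6 build, 300-base windows around gene starts, were used for this. They covered 27 of the 195 regions, 17 of which had a peak in all 4 libraries. At least 30 bases of the stretch of 250 bases before the start were covered for 15 regions, 12 opposite to the gene whose start it is and 3 on its strand. Of those 15, 10 were found in all libraries, and 5 of these are printed on the strand of the TEC gene, with GGACT in capitals. They are the pair with the strongest peaks (Gm4430 and 9330162G02Rik), the named antisense RNA Particl, and the other members of this set that hold the motif (Gm45453 and 4933440N22Rik); they were chosen after their values were seen.
Gm4430, chr2:129198523-129198772, minus strand: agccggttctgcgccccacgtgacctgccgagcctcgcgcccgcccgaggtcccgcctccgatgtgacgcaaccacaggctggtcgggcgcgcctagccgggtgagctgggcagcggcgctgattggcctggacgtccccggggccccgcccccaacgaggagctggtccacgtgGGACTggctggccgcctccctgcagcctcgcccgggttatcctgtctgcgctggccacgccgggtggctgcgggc
9330162G02Rik, chr7:59228704-59228749, minus strand: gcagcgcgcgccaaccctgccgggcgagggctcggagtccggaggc
Particl, chr6:72439557-72439806, plus strand: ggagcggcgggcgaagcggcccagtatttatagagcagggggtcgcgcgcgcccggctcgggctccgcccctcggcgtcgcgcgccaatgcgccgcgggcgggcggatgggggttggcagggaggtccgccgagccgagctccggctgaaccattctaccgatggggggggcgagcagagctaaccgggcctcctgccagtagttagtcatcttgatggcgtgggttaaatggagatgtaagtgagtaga
Gm45453, chr8:22411090-22411221, plus strand: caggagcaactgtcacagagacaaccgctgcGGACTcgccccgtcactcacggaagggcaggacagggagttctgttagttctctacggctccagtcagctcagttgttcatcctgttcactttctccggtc
4933440N22Rik, chr6:117906636-117906781, minus strand: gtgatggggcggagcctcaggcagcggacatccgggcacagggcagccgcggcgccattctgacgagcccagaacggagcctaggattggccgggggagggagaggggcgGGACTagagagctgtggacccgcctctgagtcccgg

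Gm4430 runs opposite to the start of Slc20a1, a phosphate transporter, and 9330162G02Rik opposite to Ube3a, the ubiquitin ligase whose loss causes Angelman syndrome. Particl is a long non-coding RNA at the promoter of Mat2a, which encodes the enzyme that makes the methyl donor S-adenosylmethionine. 4933440N22Rik lies opposite to Hnrnpf, a splicing regulator, and Gm45453 lies on the strand of Mrps31, a protein of the mitochondrial ribosome. The motif GGACT, searched on the strand of the TEC gene only, occurred once in 3 of the 10 sequences found in all libraries: Gm4430, Gm45453 and 4933440N22Rik. In the same stretch and orientation it was held by 22.1% of all 32851 windows for Gm4430, 11.8% for Gm45453 and 13.7% for 4933440N22Rik. The stretch of Particl had none, where 22.1% of windows hold it, and nor did that of 9330162G02Rik, where 3.91% do. The rest of the 10 had none either, at shares from 2.78% (Gm42922) to 15.4% (4732416N19Rik). Over all 15 regions, 6 held the motif. These matches are letters and not mapped sites, and most bases of the 195 regions lay outside the windows.

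TEC peaks made up about 1% of each list and were weak for their list. In wild type 1 and 2 there were 128 and 116 TEC peaks, 1.09% (95% Wilson interval 0.921 to 1.30) and 1.04% (0.864 to 1.24) of the list. In knockout 1 and 2 there were 166 and 116, which is 1.31% (1.12 to 1.52) and 1.07% (0.895 to 1.28). Knockout 1 stood above the other 3 libraries, which were alike, and it also had the longest list. Its list held 238 peaks with an adjusted p-value of 0.05 or more, 7 of them of class TEC. Wild type 1, wild type 2 and knockout 2 held 22, 25 and 24 such peaks, of which 0, 1 and 2 were TEC. The mean share was 1.07% ± 0.0416 (SD, n = 2) in wild type and 1.19% ± 0.166 (SD, n = 2) in the knockout, a difference of 0.125 percentage points (exact permutation test over libraries, two-sided, p = 0.667). With 2 libraries against 2 no p below 0.333 can be reached. Without knockout 1 the difference was 0.00698, and without knockout 2 it was 0.242.

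Strength was read as the percentile of a peak's p-value within its own list, 100 being the strongest. The median TEC peak stood at percentile 36.5 and 36.2 in the wild-type libraries and at 37.5 and 33.3 in the knockout libraries. The median of the remaining peaks was 50.1 to 50.2, so TEC peaks stood lower in all 4 libraries, by 14.3 on average (12.7 to 17.0). An exact sign-flip permutation test over the 4 libraries, two-sided, gave p = 0.125, the smallest that 4 libraries allow. The spread was wide: TEC peaks ran from percentile 0.107 to 99.5, and the strongest 10% of a list held 8, 8, 8 and 7 TEC peaks in the same order of libraries. The deposited fold enrichment was lower as well, with a median of 13 to 17.8 for TEC peaks and 19.2 to 26.6 for the rest. TEC peaks were also narrower, with a median width of 224 to 268 bases against 331 to 360. The rest is mostly protein-coding, and other non-coding classes were also weak and narrow. Median percentiles by library were 35.1 to 39.9 for processed pseudogenes, 35.9 to 41.3 for long intergenic non-coding RNAs and 39.4 to 42.5 for antisense RNAs, and the median widths over all their peaks were 240, 270 and 265 bases against 239 for TEC.

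**Figure D1:**
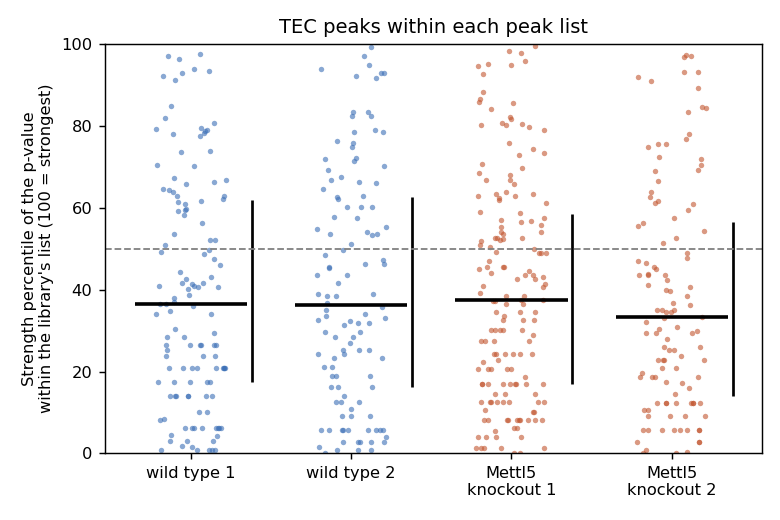
Strength percentile of each TEC peak (points) within the list of its library, on a scale where 100 is the strongest peak, for 2 wild-type (blue) and 2 Mettl5 knockout (orange) libraries. Thick bars are medians (33.3 to 37.5), thin vertical bars the middle 50% of the peaks, and the dashed line is percentile 50; all 4 medians lie below it.

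A small set of TEC regions was strong in every library. The 10 genes with the highest mean percentile among those found in all libraries were AC154141.1, Gm45133, Gm37376, Gm26596, Gm38058, Gm44729, Gm4430, Gm10699, 4930413G21Rik and 9330162G02Rik. Folds below are those the authors list for each peak, given in the order wild type 1, wild type 2, knockout 1, knockout 2. They are not scaled between libraries, so they describe each list and show no change between genotypes.

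The strongest region, of AC154141.1, lies on chromosome 7 at 83895498 to 83895948 (mm10, plus strand), inside the span of Mesd, which encodes a chaperone of the LDL-receptor family. Its folds were 131, 102, 159 and 119, and its percentiles 97.1, 99.1, 99.5 and 97.0. The genotypes overlapped. A second region of this gene, at 83892262 to 83892652, had folds of 23.5, 38.8, 58.3 and 52.3, with both wild-type libraries below both knockout libraries. The gene's peaks in these regions were listed as coding sequence, the only TEC peaks so listed (8 of 526), whereas 517 were listed as exon with no finer part and 1 as a 3' untranslated region, of Gm37939.

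Gm45133, on the minus strand of chromosome 7, had 4 regions, the most of any TEC gene. The region at 5061363 to 5062049 had folds of 209, 394, 340 and 195, with wild-type and knockout libraries intermixed. The region at 5059515 to 5060529 had folds of 274, 241, 1570 and 844. Here both knockout values lay above both wild-type values, while the percentiles were close together (92.1, 92.1, 95.1 and 91.9). The same 2-against-2 order was seen in the opposite-strand peak of Ccdc106 over this region, given below.

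Gm4430, opposite to Slc20a1, had one of the widest TEC regions (1316 bases, chromosome 2, 129197879 to 129199194) and folds of 598, 430, 951 and 682. Its percentiles were 91.2, 91.8, 92.8 and 89.2, so it was strong in each list. 9330162G02Rik, at 59228704 to 59229723 of chromosome 7, had folds of 110, 64.7, 33.1 and 51.5. Both of its wild-type values exceeded both knockout values, although its percentile was highest in knockout 1 (84.0, against 78.1 to 79.1 in the other libraries). Gm10699, on chromosome 8 and inside no coding gene of the RefSeq table, had folds of 224, 195, 278 and 173 in its stronger region. 4930413G21Rik, opposite to Rbbp6, a ubiquitin ligase that binds the retinoblastoma protein, had folds of 58.6, 55.3, 62.5 and 33.8 over only 176 bases. In both of these the knockout libraries lay on either side of the wild-type libraries.

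**Figure D2:**
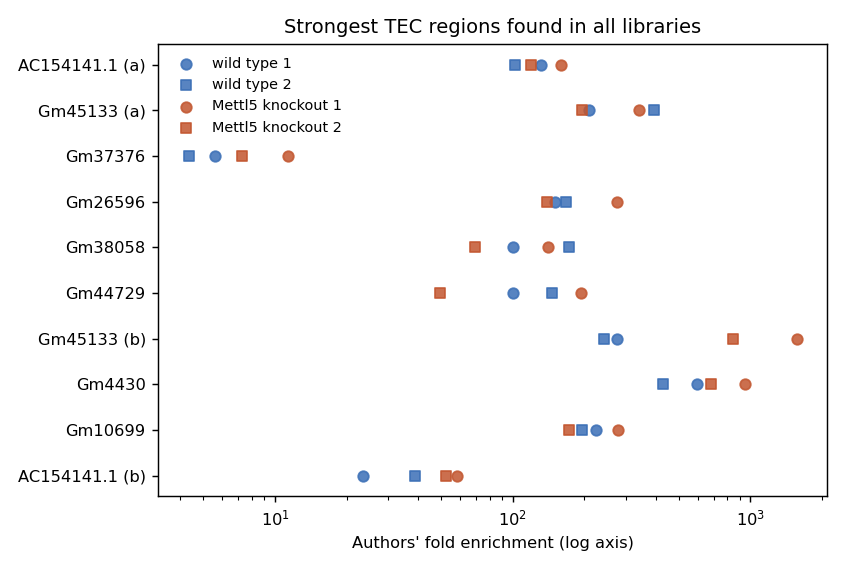
Authors' fold enrichment (log axis) in each library for the 10 strongest TEC regions found in all 4 libraries; circles and squares are the first and second library of wild type (blue) and Mettl5 knockout (orange), and (a) and (b) mark regions of 1 gene. Folds run from 4.34 for Gm37376 to 1570 for Gm45133 (b).

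Many TEC peaks lay across from a peak on the other strand. By library, again with both wild types first, 23, 23, 31 and 19 TEC peaks overlapped an opposite-strand peak of the same library, which is 17.97%, 19.8%, 18.7% and 16.4%. For all other peaks the share was 5.14% to 5.71%. The TEC share was thus higher in 4 of 4 libraries, by 12.8 percentage points on average (11.2 to 14.4; exact sign-flip permutation test, two-sided, p = 0.125, the smallest possible). Long intergenic non-coding RNAs had 14.3% to 18.3%, close to TEC genes, and genes annotated as antisense RNA had 31.0% to 33.7%. Processed pseudogenes had 3.16% to 3.86% and protein-coding genes 4.10% to 4.61%. The libraries are described as stranded by no source used here, and without strand the reads of a gene and its opposite neighbour cannot be told apart.

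**Figure D3:**
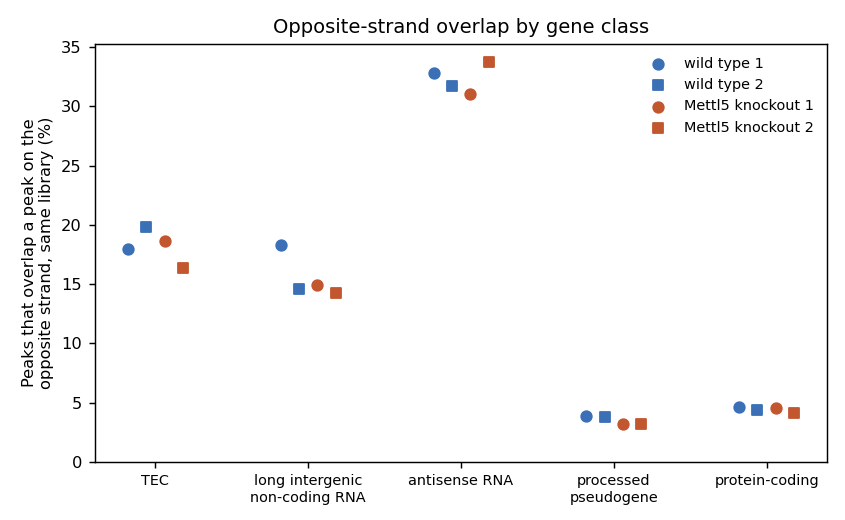
Share of the peaks of each gene class (%) that overlap a peak on the opposite strand of the same library; points are the 2 wild-type (blue) and 2 Mettl5 knockout (orange) libraries. TEC peaks sit between 16.4% and 19.8%, above protein-coding genes and processed pseudogenes and below antisense RNAs.

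The partners were nearly all coding genes. Taking for each TEC peak the partner of another class that it overlapped most, there were 94 pairs from 30 TEC genes, 90 with a protein-coding gene and 4 with the non-coding RNA Malat1. The partner's peak was listed as coding sequence in 38, 5' untranslated region in 16, 3' untranslated region in 16 and exon in 24. The overlap was nearly complete: at least 90% of the TEC peak was covered in 67 of the 94 pairs, with a median of 98.0%. The pairs of 1 gene in several libraries are the same site and not independent.

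Folds on the 2 strands were closer where the partner was not much wider. Of 62 pairs with a partner up to 2 times as wide, 33 had folds within a factor of 1.1 of each other, 7 differed by more than a factor of 2, and the median ratio of the larger to the smaller was 1.08. Of 32 pairs with a wider partner, none had folds within a factor of 1.1, and the median ratio was 14.1. Among the pairs of like width the largest ratio was that of Gm37206 and Rbm4b in wild type 1, with 159 against 602. Next came Gm43034 and Rilpl1 in wild type 2 (8.88 against 29.6) and Particl and Mat2a in knockout 2 (22.4 against 7.1). Gm37206 and Rbm4b followed, with 325 against 991 in wild type 2 and 191 against 488 in knockout 1. Across all 94 pairs the fold was listed as the same number on both strands in 13, was higher for the partner in 60 and lower in 21. Gm18310 and Hddc3 had 10.4 and 10.4, and 11.2 and 11.2, at their 2 sites in knockout 1. In wild type 2 their sites had 8.14 on both strands and 10.4 on both strands. AC126804.1 stood opposite to Bace1, the beta-secretase that cuts the amyloid precursor protein. Its folds of 240, 269 and 182 in wild type 2, knockout 1 and knockout 2 met folds of 243, 271 and 182 for Bace1. In wild type 1 the TEC peak was listed at 218 with no Bace1 peak over it. For Gm45133 the values of 274, 241, 1570 and 844 met 189, 269, 1580 and 829 for Ccdc106. Both strands had higher listed folds in the knockout libraries there, while the order of the wild-type libraries was not the same on both strands.

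A broad, strong partner stood over the TEC peak at other sites. Gm37376 lies opposite to Malat1, an abundant nuclear RNA that is rich in m6A (chromosome 19, 5801941 to 5802393). Taking each gene's strongest region, it had the lowest folds of the 10 strongest genes (5.6, 4.34, 11.3 and 7.23) with percentiles between 93.996 and 98.2. Malat1 peaks of 1319 to 2159 bases across from it had folds of 208, 120, 267 and 118. Gm38058, opposite to the WNT receptor gene Fzd5, had folds of 100, 173, 141 and 69.7 where Fzd5 had 866, 727, 1650 and 450. Gm44729, opposite to Sephs2, which makes selenophosphate for selenoproteins, had 100, 146, 193 and 49.5 where Sephs2 had 315, 191, 397 and 300. In these 3 cases the TEC fold was lower than that of its partner in each library. The same held for Gm26596 against Atxn7l3b (151, 167, 274 and 140 against 364, 310, 420 and 593).

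Opposite-strand partners were seen at some of the strongest TEC peaks. They were found for 5 of the 10 strongest genes (Gm45133, Gm37376, Gm26596, Gm38058 and Gm44729) and for 20 of the 31 TEC peaks in the strongest 10% of a list, which come from 7 genes. Those 20 peaks belong to the same 5 genes, counted once in each library. The share among the other peaks in the strongest 10% is not given here. TEC peaks with an opposite-strand peak had median percentiles of 56.2, 53.5, 53.6 and 43.8 in the order of libraries above. Those without had 28.4, 33.5, 36.5 and 29.5. Peaks with an opposite-strand peak were also wider, with median widths of 328, 340, 357 and 453 bases against 210, 241, 210 and 236. Their median folds were 21.7, 18.5, 18.4 and 22.4 against 13, 17.8, 13.6 and 12.7, so the folds were close in wild type 2. The parts of peak width and of shared reads in the difference in percentiles were not tested.

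**Figure D4:**
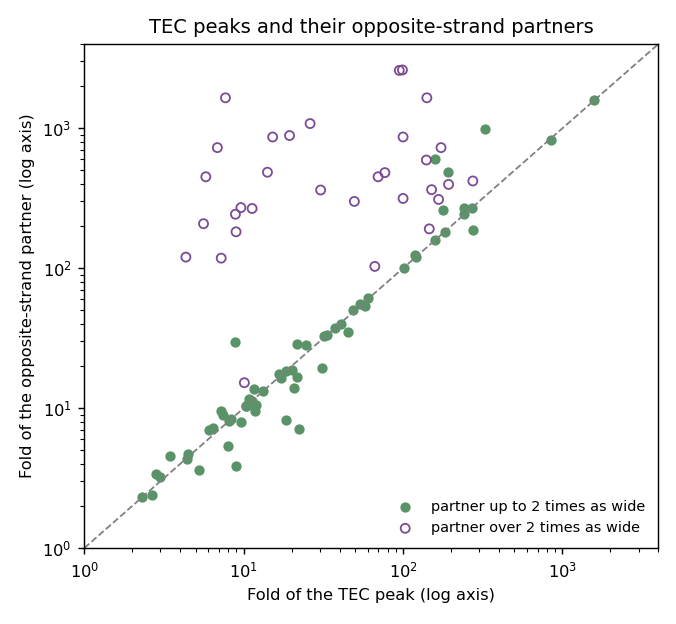
Fold of each TEC peak (horizontal, log axis) and of the opposite-strand peak it overlaps most (vertical, log axis) for 94 pairs in 4 libraries; the dashed line marks equal folds. Of the filled points (partner up to 2 times as wide), 33 of 62 lie within a factor of 1.1 of the line and 7 lie more than a factor of 2 away, and all 32 open points (wider partner) lie above it.

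The setting of the regions was read from the spans of RefSeq genes. A region with protein-coding genes on both strands was counted under the same strand. Of the 195 regions, 48 (24.6%) lay in the span of a protein-coding gene on the same strand. Another 65 (33.3%) lay in one on the opposite strand, with none on the same strand. The 65 include the region that Gm43172 and Gm43173 share on opposite strands, over Septin11, which has no single strand. For 18 (9.23%) the strand of the host was not given, 7 (3.59%) lay within 5000 bases downstream of a coding gene on its strand, and 57 (29.2%) lay elsewhere. RefSeq held 17 of the 164 TEC symbols, 11 of them as long non-coding RNA and 2, Gm10461 and 4933440N22Rik, as protein-coding genes. Of the 65 regions counted as opposite to a coding gene, 29 had an opposite-strand peak in the same library. Among these is the region of Gm43172 and Gm43173, whose TEC peaks overlap each other. Gm37206, counted among the 48, also lay opposite to Rbm4b and had an Rbm4b peak across from it. Only 3 of the 48 on a coding gene's strand shared bases with a same-strand peak of another gene.

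The 4 TEC genes that overlapped a same-strand peak of another class had folds near or above those of their partners. The second AC154141.1 region overlapped coding-sequence peaks of Mesd, with 23.5, 38.8, 58.3 and 52.3 for the TEC gene and 24.4, 39.8, 60.2 and 56 for Mesd. 4930594C11Rik lay over the processed pseudogene Gm43213 and had 54.7, 57.7 and 53.8 in wild type 2, knockout 1 and knockout 2 against 54, 57.7 and 50. In wild type 1 its 2 separate peaks had 18.8 and 10.1 against 19.5 and 9.4. Gm37090, inside no coding gene, overlapped the antisense RNA Gm16008 in the knockout libraries, with 20 and 17.2 against 11.2 and 9.71. Its pairs were the exceptions among 12 same-strand pairs, of which the other 10 had folds within a factor of 1.1. AC126251.1, over Dgkh, a diacylglycerol kinase, was the weakest of these (3.74 against 3.80, in knockout 1 alone). Apart from overlaps, a coding gene's peak on the same strand lay within 1000 bases of 1, 0, 2 and 1 TEC peaks in the order of libraries above. Within 10000 bases, overlaps included, it did so for 11.2% to 14.8%. The same-strand shares of all other peaks are not given here, so these values have no background beside them. Gm37179, 509 bases from a peak of Igf2bp1, and Gm38103, 1475 bases from one of Nkx2-9, were among the closest, as was the region that Gm43172 and Gm43173 share on opposite strands. On either strand, 26.0% of TEC peaks on average had a peak of another gene within 1000 bases (24.1% to 28.9%), against 9.92% of all other peaks. Most of these were overlaps: 20.5% of TEC peaks overlapped a peak of another gene and 5.52% had one nearby without overlap, against 7.28% and 2.64% of the other peaks.

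TEC regions recurred between libraries about as often as regions of all peaks. A peak in all 4 libraries was found in 79 of 195 TEC regions (40.5%, 95% Wilson interval 33.9 to 47.5), where 42.5% of the 15487 regions of all peaks had one. A single library held 59 TEC regions (30.3%, interval 24.2 to 37.0), against 28.3% of all regions. Of those 59, 34 were in knockout 1, 13 in wild type 1, 7 in wild type 2 and 5 in knockout 2. Knockout 1 thus held 57.6% of them, and it held 43.6% of the single-library regions of all peaks. The Jaccard index of shared TEC regions was 0.641 for the wild-type pair, 0.584 for the knockout pair and 0.580 to 0.614 across genotypes, so the knockout pair lay within the range of the pairs across genotypes. Over all peaks the values were 0.657, 0.588 and 0.615 to 0.646, with the knockout pair below every pair across genotypes.

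Sharing went with strength. TEC regions found everywhere had a median mean percentile of 52.1 and a median width of 421 bases, and those of a single library 12.6 and 150 bases. The width of a region counts the bases of all its joined peaks. It can therefore grow with the number of libraries, so the widths are not a like comparison. For all peaks the medians were 62.3 and 16.2, so TEC regions were weaker at both ends. The strongest single-library regions were those of Gm42928 (fold 7.95, percentile 38.6, wild type 1), Gm44829 (fold 16, percentile 36.5, knockout 1), Gm44986 (fold 6.51, percentile 36.4, wild type 1), Gm43172 with Gm43173 (fold 15.2, percentile 34.6, knockout 1) and AC149588.1 (fold 12, percentile 33.6, knockout 1). None of them reached the median of its list. The Gm42928 peak lies opposite to the start of Cnn3, and a Cnn3 peak over it had a fold of 5.35 in the same library.

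**Figure D5:**
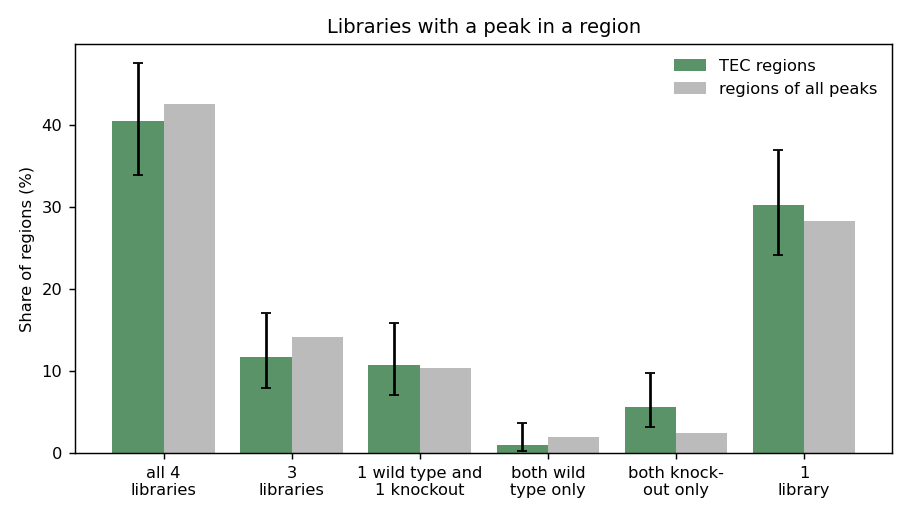
Share of TEC regions (green, with 95% Wilson intervals) and of the regions of all peaks (grey) by the libraries that held a peak. TEC regions in all 4 libraries (40.5%) and in 1 library (30.3%) are near the shares of all regions (42.5% and 28.3%), and 5.64% were seen in both knockout libraries only, against 2.51%.

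The genotype comparison asked whether TEC regions came and went with Mettl5. Both wild-type libraries and no knockout library listed 2 TEC regions (1.03%, 95% Wilson interval 0.282 to 3.66), against 2.02% of all regions. The reverse, both knockout libraries and no wild-type library, held for 11 TEC regions (5.64%, interval 3.18 to 9.82), against 2.51% of all regions. Regions listed in exactly 1 wild-type and 1 knockout library numbered 21 (10.8%, against 10.4% of all regions). Knockout 1 shared 8 of them with wild type 1 and 9 with wild type 2, and it shared 11 other TEC regions with knockout 2 alone. Over the 15487 regions of all peaks the same numbers were 563, 486 and 388. The knockout pair was thus the highest of these among TEC regions and the lowest over all regions. These TEC counts are small and were not tested. Knockout 2 shared 2 TEC regions with each wild-type library, against 294 and 274 of all regions. The intervals cover counting error over regions only, and no test over 2 libraries a group was possible at 0.05. The count of 11 rests on the libraries: it was 8 with lists of equal length and 9 with an adjusted p-value under 0.05. It was 0 in the stronger 50% of each list, 18 without wild type 1 and 45 without knockout 2. The count of 2 became 10, 15 and 13 without wild type 1, wild type 2 and knockout 1. Counts over all regions are not given for these settings, so these counts have no background share beside them. Without wild type 1 the knockout-only count also takes in regions listed in wild type 1 and both knockout libraries, 7 of TEC and 489 of all regions. Without knockout 2 it takes in those of knockout 1 alone, 34 of the 195 TEC regions and 1913 of the 15487 regions.

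The knockout-only regions were weak. Their mean percentiles ran from 4.11 to 49.2, with a median of 16.6, and in 10 of 11 both peaks lay under percentile 50. Low strength was not particular to them. The median was 23.1 for knockout-only regions of all peaks, and 15.5 for TEC regions in 1 wild-type and 1 knockout library. Gm38142, inside Dis3l2, an exonuclease of uridylated RNAs, had the strongest (chromosome 1, 86829237 to 86829625), with folds of 53.7 and 23.9 in knockout 1 and 2. Gm37570, inside Kansl1l, had 26.4 and 13.4, and a second region of this gene was listed in wild type 1 (10.1) and knockout 1 (9.61). Gm37490 had 13.6 and 21.7. The next in strength were Gm45110 (11.2 and 2.87), Gm37242 (11.2 and 10.5), Gm37017, also inside Dis3l2 (8.81 and 9.71), a small region of Gm45133 (8.81 and 10.5), AC152922.1 (10.4 and 6.72) and 4930589O11Rik (7.21 and 8.96). Gm42727, with 4.01 and 3.32, was knockout-only as a TEC region, but both wild-type libraries listed a peak of Pds5a, a cohesin regulator, over part of it on the opposite strand, with folds of 17.4 and 11.3. Those Pds5a peaks crossed exon junctions, in 3 blocks each. No other of the 11 had a peak of any gene in a wild-type library. None of the 11 overlapped an opposite-strand peak in its own library. The wild-type-only regions were Gm37780, inside Rsu1 (folds of 7.23 and 11.8), and a region of Gm37621, opposite to Ppp2r3a (9.4 and 8.14). A second region of Gm37621 was listed in wild type 1 and in both knockout libraries, at 28.9, 31.2 and 14.2.

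Particl gave another pattern, described after its values were seen. Its main region was listed in all 4 libraries with folds of 13, 13.3, 21.6 and 22.4, both knockout values above both wild-type values. A Mat2a peak overlapped it on the opposite strand in the knockout libraries alone, with folds of 16.8 and 7.1. The Particl peaks were of modest strength, between percentiles 23.2 and 45.6.

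The members shared a simple build. Of 526 peaks, 525 had a single exon block, and 136 of the 164 genes had 1 region. Peaks with several blocks made up 0.190% of TEC peaks, 0.495% of those of processed pseudogenes, 4.39% for long intergenic non-coding RNAs, 4.54% for antisense RNAs and 11.6% for protein-coding genes. After Gm45133 the most regions were held by AC126804.1 and Gm10461 (3 each), and among the genes with 2 the strongest were AC154141.1 and Gm38058. Gm10461, opposite to the kinase gene Yes1 at one of its regions, was weak throughout, with folds of 5.21 to 13.3. The widest region was that of Gm46339 (1591 bases on chromosome 12, folds of 155, 129, 222 and 143), followed by Gm37844 opposite to Kbtbd11 (1466 bases, folds of 99.1, 94.7, 76.9 and 19.4), Gm4430, 9330162G02Rik and Gm45133. Knockout 2 was the low value for Gm37844, whose stronger peak in that library was 689 bases wide.

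TEC regions were spread unevenly over the genome. Chromosomes 7, 5 and 1 held 33, 30 and 28 of the 195 regions (16.9%, 15.4% and 14.4%), where they held 8.76%, 6.78% and 5.90% of all regions. Chromosome 11 held 1 TEC region, that of Gm37179, against 8.09% of all regions, and chromosomes 18, X, Y and MT held none. The part of uneven annotation in this was not tested. Most members have names that say nothing of function: 113 of the 164 genes carry a Gm number, 26 a RIKEN clone name and 24 a genomic clone name, which leaves Particl.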

How the data were processed

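The labels place 2 libraries in each genotype. The authors deposited 1 list of peaks per library, each peak having a p-value, log10 values of it and of its adjusted form, and an enrichment (fold ratio) over a background that is not named, per the file headers. HISAT2, HOMER and the mm10 build are named in the submitters' processing notes without a role; the peak caller is not given in the sources used here. Depth is unknown here, so a missing peak does not show a missing mark, and intervals cover counting error only.

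From these lists, TEC peaks were joined where exon blocks shared at least 1 base, on either strand. Peaks off the reference chromosomes (3 to 6 per list, none of class TEC) were left out. Percentiles were ranked within each full list, with ties sharing their mean rank. The joining code was run on simulated lists of single-block peaks, all on the same strand and set far apart, and returned the planted counts. Those lists held no split peaks, close neighbours or opposite-strand peaks, so they do not check the counts given here. Members, lists and rules were chosen with earlier results of these data known. Named genes followed a rule by strength, pattern, number of regions, closeness and width, which gave 34 genes; others were named after their values were seen. Coordinates are 1-based. The RefSeq table (GRCm38.p6) gave a strand for 17490 of 21898 coding genes and no exons, so introns and exons were not told apart. Alternatives were an adjusted p-value under 0.05, the stronger 50%, equal lengths, joining within 100 bases, 50% reciprocal overlap, the same strand, peaks of any class, and each library left out. Scripts ran under Python 3.11.15 with scipy 1.17.1, pandas 2.3.3 and numpy 2.4.6.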

Additional observations from a re-analysis of the deposited data

How the results depend on the processing

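The 79 TEC regions found in all libraries became 29 in the stronger 50% of each list, and 72 to 80 at equal length, with blocks within 100 bases joined, at 50% reciprocal overlap, on the same strand or with an adjusted p-value under 0.05. Leaving out each library gave 80 to 90. In the stronger 50% there was 1 wild-type-only and there were 0 knockout-only regions. With each library left out in turn there were 3 to 15 wild-type-only and 15 to 45 knockout-only regions, since 1 list then stands for a genotype. For these settings no counts over all regions are given. The knockout minus wild-type difference in the TEC share of peaks kept its sign in all alternatives, at 0.00698 to 0.242 percentage points with each library left out. An alternative chosen after seeing the data, without TEC peaks that overlap an opposite-strand peak, left 59 regions in all libraries, 3 wild-type-only and 11 knockout-only, and moved the mean of the median strength percentiles from 35.9 to 32.0. The share of TEC peaks with a peak of another gene nearby, overlaps included, was 23.6% within 500 bases and 37.98% within 5000 bases. No paired analysis was made, since replicate numbers are missing from the wild-type labels. No model was fitted. Unknown depth limits what an absent peak can show.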
